A study of Mus musculus with 6 samples.

Results

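In mouse small intestinal organoids treated with RANKL, 362 windows of 200 bp were accessible by ATAC-seq that had low signal in control organoids, out of 55056 windows measured across the genome (0.658%). A window was taken when its mean was at least 30 CPM (read counts scaled to a common library total) in the RANKL libraries and under 15 CPM in the control libraries, when the RANKL mean was at least 3 times the control mean, and when every RANKL library reached 15 CPM. The windows were thus chosen by the CPM of both groups, and the RANKL against control difference within them is described here and not tested. With the groups exchanged, 336 windows met the same limits.

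ATAC-seq inserts sequencing adapters into open DNA with the transposase Tn5, so reads pile up where chromatin is accessible. The RANKL group (n = 3) was wild-type organoid line26, grown from a female Lgr5GFPDTR/+ mouse, given 100 ng/ml RANKL for 6 days after 3 days of 3 µM CHIR99021, a GSK3 inhibitor, with 1.5 mM valproic acid, a histone deacetylase inhibitor, and 1 day in ENR medium, which holds EGF, Noggin and R-spondin. The control group (n = 3) was the same line at day 6 in ENR, and both groups therefore carry the Lgr5 reporter and diphtheria toxin receptor allele. Whether control organoids were also given CHIR99021 and valproic acid is not stated in the labels. The names of the control libraries begin with CVENR, letters that the labels do not explain. From the stated labels alone, RANKL and that pretreatment cannot be told apart. All libraries come from 1 organoid line, each from 50000 cells, and the 3 replicates of a group are independent differentiation experiments. In bulk samples, more cells with an open site and a more open site in each cell cannot be told apart.

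RANKL is a TNF family cytokine that binds the receptor RANK, recruits TRAF adaptors and activates NF-kB. In the gut, subepithelial cells make it beneath lymphoid follicles, where it drives epithelial cells to become microfold (M) cells, which carry antigens from the lumen to immune cells. In bone the same cytokine drives osteoclast formation. Accessible sites far from gene starts are often enhancers, whereas promoters tend to be open in many cell types.

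The deposited windows held 322173, 466521 and 828445 counts in RANKL replicates 1 to 3 and 920681, 976881 and 455083 in control replicates 1 to 3. A level of 15 CPM was thus 4.83, 7.0 and 12.4 counts in the RANKL libraries, and 3 counts were worth 3.62 to 9.31 CPM there and 3.07 to 6.59 CPM in controls. Windows within 1 kb of the epithelial genes Epcam, Vil1, Cdx1, Cdx2 and Hnf4a averaged 33.1 to 69.8 CPM with RANKL and 30.1 to 74.6 CPM in controls. No window lay within 1 kb of the immune genes Ptprc, Cd3e, Laptm5 or Csf1r, nor of the mesenchymal and endothelial genes Col1a2, Pdgfra, Pecam1 and Cdh5, nor of the epithelial gene Krt8. A window near the mesenchymal gene Col1a1 averaged 11 CPM with RANKL and 9.16 CPM in controls.

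Few of the opened windows lay at promoters. Of the 362, 11 (3.04%) overlapped the 300 bases around a listed RefSeq gene start (250 before to 50 after, GRCm38.p6). The share was 13.3% of all windows, 46.9% of those with a RANKL mean of at least 30 CPM and 1.49% with the groups exchanged. The list gave no start for any opened window on the chromosome of Cd74. The window 166 bp from the Cd74 gene end was thus not assessed, and promoter counts, shares and motif searches cover listed starts only. Wholly inside a listed 300-base stretch lay 4, at H2-M2, Frmd8, Nfe2l1 and Pde1c. That of Nfe2l1 was at an internal start, 5711 bp from the gene end. The window 196 bp from the Nfe2l1 gene end averaged 64.6 ± 12.2 CPM with RANKL and 65.9 ± 18.3 CPM in controls (SD, n = 3 each). It was not called (edgeR adjusted p = 0.785). The upstream DNA of 4 of the 11 is shown, because promoter sequence was the part of the opened windows that could be read for motifs, and these stretches end before the start. H2-M2 encodes a nonclassical MHC class I molecule, Pde1c a cyclic nucleotide phosphodiesterase, Nfe2l1 a stress-response transcription factor and Abcc2 an exporter of conjugated compounds. Each sequence runs 5′ to 3′ on the strand of the gene, and capitals mark matches to the motifs searched.
H2-M2, chr17:37483572-37483771, minus strand: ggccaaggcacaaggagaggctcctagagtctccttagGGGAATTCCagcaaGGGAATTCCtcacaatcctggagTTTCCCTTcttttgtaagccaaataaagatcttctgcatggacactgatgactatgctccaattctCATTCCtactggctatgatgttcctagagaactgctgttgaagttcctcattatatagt
Pde1c, chr6:56362404-56362603, minus strand: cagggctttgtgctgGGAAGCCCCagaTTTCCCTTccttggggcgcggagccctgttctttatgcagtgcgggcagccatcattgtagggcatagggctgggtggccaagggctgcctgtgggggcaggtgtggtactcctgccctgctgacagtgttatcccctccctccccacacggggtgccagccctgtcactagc
Nfe2l1, chr11:96824158-96824357, minus strand: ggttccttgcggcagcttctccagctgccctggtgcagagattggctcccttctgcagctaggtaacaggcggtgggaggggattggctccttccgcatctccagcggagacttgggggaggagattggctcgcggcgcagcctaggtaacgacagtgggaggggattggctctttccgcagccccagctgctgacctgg
Abcc2, chr19:43782058-43782244, plus strand: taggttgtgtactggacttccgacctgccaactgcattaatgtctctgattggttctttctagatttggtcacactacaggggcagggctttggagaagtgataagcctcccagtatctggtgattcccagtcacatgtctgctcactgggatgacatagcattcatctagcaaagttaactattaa

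The H2-M2 window held the NF-kB letters GGGAATTCC at 2 places, 179 and 165 bases upstream of the gene start, followed by an IRF-type match 142 bases and a TEAD match 76 bases upstream. In the Pde1c window, at an internal start of that gene, an NF-kB match (GGAAGCCCC) lay 196 bases and an IRF-type match 184 bases upstream. The window at an internal Hrh1 start, Hrh1 being a histamine receptor gene, held an NF-kB match (GGAATACCC) 62 bases upstream of the start. Within promoter sequence, the Ptpre window held an AP-1 match (TGACTCA) 240 bases upstream and the Apoa4 window a TEAD match (CATTCC) 21 bases upstream. No motif of the set was found in the printed stretches of Nfe2l1 and Abcc2, in the Frmd8 window or in the promoter bases of the remaining windows.

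The search covered both strands. Motifs of signalling factors were NF-kB, spelled GGGNNTTCC, AP-1, spelled TGANTCA, and IRF, spelled AANNGAAA. Others were TEAD, spelled CATTCC, Ets, spelled GAGGAAGT, and the promoter motif of KLF and SP factors, spelled GGGCGG. Motifs of gut epithelial factors were ONECUT, spelled ATCAATA, HNF4, spelled CAAAGTCCA, GATA, spelled AGATAA, and CDX, spelled TTTATNG. NF-kB and Ets letters can share bases, as can IRF and Ets letters. Of the 4 opened windows wholly inside promoter sequence, 2 held the NF-kB letters, against 6.26% of all 2781 windows so placed. The IRF letters were in 2 of the 4, against 8.49%, and the TEAD letters in 1 of the 4, against 6.65%. The KLF and SP letters, found in 65.9% of the 2781 windows, were in 0 of the 4, and the other motifs were also in 0 of the 4, against 0.575% to 3.85%. The GC content was 44.5% in the H2-M2 window, 63.5% in those of Nfe2l1 and Pde1c and 66.0% in that of Frmd8, against a median of 64.5% over the 2781 windows. A match describes letters and says nothing of binding, and 4 windows are few.

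The opened windows reached similar levels in each RANKL library. Their median was 40.4, 38.6 and 37.4 CPM in RANKL replicates 1 to 3, against 4.34, 5.12 and 4.39 CPM in control replicates 1 to 3. The limits, a mean of at least 30 CPM with RANKL and under 15 CPM in controls, set these group medians apart. Within a group the medians lay close together, and a limit of 15 CPM held in each RANKL library. The 362 windows took 1.56%, 1.46% and 1.39% of the reads of the RANKL libraries and 0.191%, 0.206% and 0.186% of those of the controls. Mean levels with RANKL ran only to 93.5 CPM, with 226 windows under 40 CPM and 19 at 60 CPM or more. The median control mean was 4.78 CPM, and the median ratio of the means was 8.04.

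Within the RANKL group, the highest value came from replicate 1 in 169 windows, from replicate 2 in 120 and from replicate 3 in 73. The lowest came from replicate 1 in 101 windows, from replicate 2 in 121 and from replicate 3 in 140. Replicate 1 is the shallowest of the RANKL libraries and replicate 3 the deepest, and the part of depth in this was not tested. In all 362 windows every RANKL library lay above every control library, which the limits nearly fix. Over all windows 12.4% did so.

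Most of the windows held some control signal, and some held as much as a typical window. Over all windows the median was 11.9, 11.3 and 11 CPM in control replicates 1 to 3, and the control means of the opened windows reached 14.95 CPM, with 304 of the 362 under 10 CPM. In 10 windows all control libraries had 0 counts, and in 67 the control libraries held at most 3 counts together. In 54 windows at least 1 control library reached 15 CPM. The edgeR test took in 358 of the 362 windows and called all 358 higher with RANKL at an adjusted p of 0.05, against 10.0% of the 21618 windows tested called higher and 10.0% called lower. Nothing is read from that count, since the same contrast chose the windows. Among the 2167 windows called higher, 16.5% met the limits used here. Of the 1809 others, 1057 had a control mean of at least 15 CPM and 664 had a RANKL mean under 30 CPM.

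**Figure D1:**
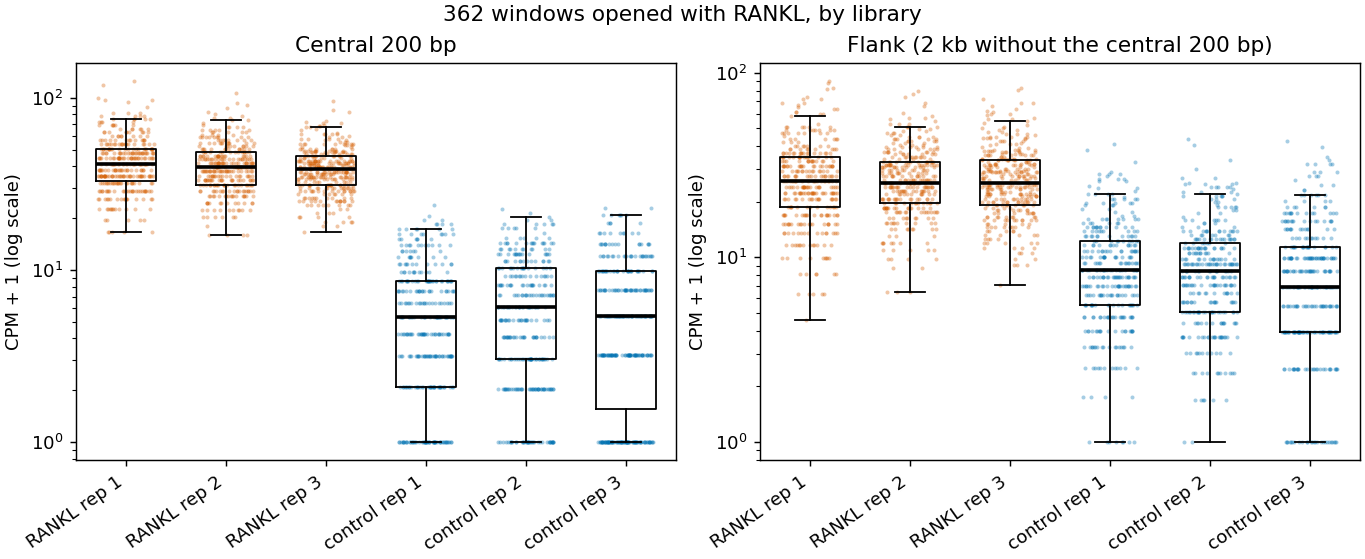
Accessibility of the 362 opened windows in each of the 6 libraries, RANKL libraries left and control libraries right (CPM plus 1, log scale), in the central 200 bp and in the flank. Each point is a window, the box spans the quartiles with the median as a line. The central medians are 37.4 to 40.4 CPM with RANKL and 4.34 to 5.12 CPM in controls.

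In the value that a limit used, windows just inside it differed little from those just past it. At the control limit, a window nearest Nckap5 (57.20 CPM with RANKL, 14.95 CPM in controls) was inside, and a window nearest Gxylt2 (46.45 CPM with RANKL, 15.18 CPM in controls) was outside. At the RANKL limit, a window nearest Rab28 (30.01 CPM with RANKL) was inside and a window nearest Etv6 (29.96 CPM with RANKL) was outside. At the 3-fold limit, a window nearest Cited2 (38.86 CPM with RANKL, 12.84 CPM in controls, a ratio of 3.027) was inside and a window nearest Klhdc8b (31.96 CPM with RANKL, 10.70 CPM in controls, a ratio of 2.986) was outside.

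Nearly all opened windows lay away from gene ends. Of the 362, 352 (97.2%, exact Clopper-Pearson 95% interval 95% to 98.7%) were over 1 kb from the nearest end of a protein-coding gene, against 43.1% of the 10000 windows with a RANKL mean of at least 30 CPM and 81.3% of all windows. The windows that met the limits with the groups exchanged were alike in this, with 95.2%. The interval takes the opened windows as independent draws and leaves out differences between libraries. With a library left out, the distal share of the opened windows was 93.1% to 95.2%. The median distance to a gene end was 29.4 kb for the opened windows, 36.9 kb for the exchanged ones, 0.330 kb for the strong ones and 17.7 kb for all windows. Only 467 of the 10000 strong windows had a control mean under 15 CPM, and the part that the control limit plays in the distal share was not tested. Among the other windows called higher with RANKL, 58.5% were distal.

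Inside gene bodies lay 131 of the opened windows (36.2%), against 46.8% of all windows. A further 124 (34.3%) were outside genes at 1 to 50 kb, against 24.0%, and 100 (27.6%) were outside genes at over 50 kb, against 19.6%. The share of windows that opened was 0.0974% within 1 kb of a gene end, 0.617% inside genes beyond that, 0.938% outside genes at 1 to 50 kb and 0.929% outside genes at over 50 kb. The levels with RANKL, which the limits hold at a mean of at least 30 CPM, were alike in these places, with medians of 36.2 to 38.0 CPM. The control medians, held under 15 CPM, ranged from 3.09 CPM at over 50 kb to 8.70 CPM within 1 kb. In 15 windows the nearest gene end was over 500 kb away.

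**Figure D2:**
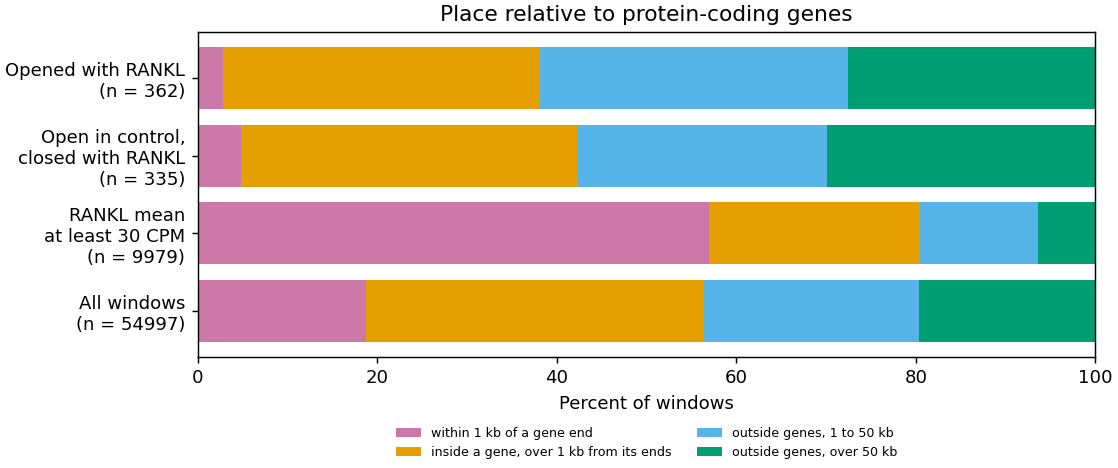
Share of windows (percent) by place relative to protein-coding genes of GRCm38.p6, for the opened windows, the windows that met the limits with the groups exchanged (named as open in control, closed with RANKL), those with a RANKL mean of at least 30 CPM, and all windows; windows on sequences without an annotated gene are left out. The opened windows were within 1 kb of a gene end in 2.76% of cases, against 56.9% of the strong windows and 18.7% of all windows.

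The windows were spread over all chromosomes analysed. Chromosome 2 held 31 and chromosome 12 held 30, which were 0.750% and 1.13% of the windows there. Chromosome X held 3 (0.203%) and chromosome 8 held 8 (0.282%). Most stood alone, with 322 having no other opened window within 100 kb, 17 groups of 2 and 2 groups of 3. The closest were 4351 bp apart. Itgb6, Mmp20, Neurl1a, Sspn and Tbc1d1 each had 2 opened windows within 50 kb. Of the 362, 2 lay within 5 kb of a miRNA gene, Mir7118 and Mirlet7c-1, which is 0.552% against 0.707% of all windows.

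The groups of 3 lay on chromosomes 2 and 8. On chromosome 2 the windows were 160, 120 and 48.1 kb from Bmp2, which encodes a bone morphogenetic protein that opposes crypt stem cell growth. The nearest of them, chr2:133503995-133504194, had 37.2, 42.9 and 47.1 CPM in the RANKL libraries, against 7.6, 10.2 and 4.39 CPM in controls. The next window toward Bmp2, 40551 bp from it, did the opposite, at 8.45 ± 6.04 CPM with RANKL and 43.5 ± 4.73 CPM in controls (SD, n = 3 each), and was called lower by edgeR (log2 fold change -2.26, SE 0.41, adjusted p = 1.11e-06). The window at the Bmp2 gene end averaged 42.1 ± 11.9 CPM with RANKL and 48.7 ± 10.2 CPM in controls (SD, n = 3 each) and was not called (edgeR adjusted p = 0.625). The chromosome 8 group lay over 120 kb from the nearest genes, Wrn and a predicted gene, with means of 31.9 to 35.2 CPM with RANKL and 0.703 to 7.39 CPM in controls.

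Several of the most open windows lay over 100 kb from a gene. The strongest, chr18:72532424-72532623, had 96.2, 90.0 and 94.2 CPM with RANKL, against 10.9, 3.07 and 11 CPM in controls. It lay 181 kb from Dcc, which encodes a netrin receptor, and its libraries were tightly grouped with RANKL. A window 425 kb from Diaph3, a formin gene, had 124, 75 and 61.6 CPM with RANKL, against 4.34, 0 and 4.39 CPM in controls. Its RANKL libraries were wide apart, with replicate 1 highest. A window 103 kb from Ywhaq, a 14-3-3 protein gene, had 86.9, 105 and 56.7 CPM with RANKL, against 1.09, 2.05 and 2.2 CPM in controls. There all controls were low, with 4 counts between them.

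Of the other 7 among the 10 strongest, 4 lay outside genes and 3 inside. A window inside Slc13a1, the sulfate transporter of gut and kidney epithelium, had 118, 57.9 and 68.8 CPM with RANKL, against 14.1, 6.14 and 17.6 CPM in controls. A window inside Elovl6, a fatty acid elongase gene, had 74.5, 72.9 and 70 CPM with RANKL, against 5.43, 11.3 and 19.8 CPM in controls. The RANKL libraries lay above the controls in both, which the limits nearly fix, although the controls of each were spread. The third of these lay inside Brinp3, and averaged 72.8 ± 7.26 CPM with RANKL and 11.4 ± 5.49 CPM in controls (SD, n = 3 each). Those outside genes were nearest to Pnpla8, Adgrl2, Adam6a and Emc2, with means of 72.1 to 84.0 CPM with RANKL and 8.81 to 14.4 CPM in controls. Of the 2 other tested windows at Slc13a1, 0 were called higher by edgeR and 1 lower. That window, 41048 bp from the gene end, averaged 14.2 CPM with RANKL and 42.0 CPM in controls (edgeR adjusted p = 0.000446).

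The 5 windows with the largest ratio of the RANKL mean to the control mean plus 1 CPM had at most 1 control count. The window nearest Btbd11 had 55.9, 62.2 and 48.3 CPM with RANKL, against 0 counts in each control library, and was at least 43.5-fold higher against a floor of 3 counts over the control group (1.28 CPM). The window nearest Luzp2 had 77.6, 38.6 and 47.1 CPM with RANKL, also against 0 counts in each control, and was at least 42.7-fold higher. A window 37.7 kb from Zmym4 had 40.4, 57.9 and 33.8 CPM with RANKL and 0 counts in controls, and was at least 34.5-fold higher. A window 1.73 kb from Itgb8 had 52.8, 53.6 and 60.4 CPM with RANKL, against 0, 1.02 and 0 CPM in controls, which is 1 count in all. The window nearest Mmut, at 518 kb, also had 1 control count, and averaged 53.4 ± 15.7 CPM with RANKL (SD, n = 3). Itgb8 encodes the integrin subunit beta 8, which forms a receptor that activates TGF-beta with the alpha v subunit.

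Among the 25 integrin subunit genes with a window, 4 had an opened one, at Itga6, Itgav, Itgb6 and Itgb8, with 5 of the 81 windows at these genes (6.17%) against 0.585% of windows at any gene. This family was chosen after its values were seen. With RANKL, a window 35.3 kb from Itga6, the laminin receptor subunit alpha 6, had 43.5, 62.2 and 82.1 CPM, against 11.9, 13.3 and 8.79 CPM in controls. Within Itgb6, which encodes the epithelial partner of alpha v, 2 windows averaged 41.5 ± 15.7 and 36.2 ± 11.7 CPM with RANKL, against 5.31 ± 2.73 and 2.07 ± 2.70 CPM in controls (SD, n = 3 each). A window 21.5 kb from Itgav, the alpha v gene, had 40.4, 49.3 and 67.6 CPM with RANKL, against 8.69, 2.05 and 8.79 CPM in controls. A window inside Itgav, 2141 bp from its end, was open in both groups, at 49.7 ± 5.57 CPM with RANKL and 58.6 ± 7.55 CPM in controls (SD, n = 3 each).

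Among the 10 opened windows within 1 kb of a gene end, H2-M2 stood highest. It had 62.1, 51.4 and 53.1 CPM with RANKL, against 4.34, 2.05 and 0 CPM in controls, a ratio of 26.1. This is the window with 2 NF-kB letter matches shown above, and no other window was assigned to H2-M2. A window 0.830 kb from Guca2b, which encodes the gut peptide uroguanylin, had 46.6, 40.7 and 30.2 CPM with RANKL, against 6.52, 2.05 and 0 CPM in controls. A window 0.166 kb from Cd74, which encodes the MHC class II chaperone known as invariant chain, had 40.4, 34.3 and 31.4 CPM with RANKL, against 2.17, 7.17 and 2.2 CPM in controls. All 3 were low in every control library. The other 7, at Frmd8, Nrxn2, Scd1, Abcc2, Trak1, Apoa4 and Krtap2-4, had means of 30.7 to 44.4 CPM with RANKL and 5.31 to 13.9 CPM in controls.

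Opened windows lay near several genes of M cells, in a list chosen with earlier results of these data known. Of 24 M cell genes with a window within 50 kb, 4 had an opened one, Ccl20, H2-M2, Marcksl1 and Msln (16.7%), against 1.38% of 15993 genes. Of their 53 windows, 4 had opened (7.55%), against 0.585% at all genes. A window 5.44 kb from Marcksl1, an M cell marker gene, had 43.5, 64.3 and 25.3 CPM with RANKL, against 3.26, 1.02 and 2.2 CPM in controls. Near Msln, which encodes the surface protein mesothelin, a window at 1.76 kb had 31.0, 42.9 and 47.1 CPM with RANKL, against 4.34, 7.17 and 4.39 CPM in controls. The groups were apart in both, which the limits nearly fix, and RANKL values scattered most at Marcksl1.

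Ccl20, whose chemokine draws lymphocytes and dendritic cells to the follicle epithelium, had an opened window at 16.8 kb. It had 27.9, 47.2 and 38.6 CPM with RANKL, against 9.78, 13.3 and 4.39 CPM in controls. The window at the end of Ccl20 itself went the other way, at 17.3 ± 9.67 CPM with RANKL and 38.2 ± 7.46 CPM in controls (SD, n = 3 each), and was called lower by edgeR (log2 fold change -0.94, SE 0.34, adjusted p = 0.0318). At the end of Marcksl1, by contrast, the window was called higher, at 27.7 ± 9.40 CPM with RANKL and 11.9 ± 10.9 CPM in controls (SD, n = 3 each), with a log2 fold change of 1.52 (SE 0.47, adjusted p = 0.00908 by edgeR). Among the other 19 tested windows of the M cell list, 4 were called higher and 4 lower, against 8.36% and 7.63% of other windows at all genes. DESeq2 called 1 higher and 1 lower of these 19, against 677 and 599 of 17669 at all genes.

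Signalling genes that act below RANK were next. Of 31 RANK and NF-kB pathway genes, Nfkbia and Traf2 had an opened window (6.45%), against 1.38% of all genes. Of their 98 windows, 2 had opened (2.04%), against 0.585% at all genes. Nfkbia encodes the inhibitor IkB alpha, itself induced by NF-kB, and a window 2.03 kb from it had 49.7, 36.4 and 42.2 CPM with RANKL, against 7.6, 7.17 and 11 CPM in controls. Traf2 encodes an adaptor of TNF family receptors, and a window inside it had 43.5, 27.9 and 41.0 CPM with RANKL, against 4.34, 4.09 and 6.59 CPM in controls. Both were clear of the controls in every library, which the limits nearly fix for any opened window. The windows at the ends of these 2 genes were open in both groups and not called by edgeR. At Nfkbia the means were 62.3 CPM with RANKL and 40.7 CPM in controls (edgeR adjusted p = 0.0667). At Traf2 they were 75.5 CPM with RANKL and 53.3 CPM in controls (edgeR adjusted p = 0.079). Of the 52 other tested windows of the pathway, 14 (26.9%, at 10 genes) were called higher by edgeR and 0 lower, against 8.36% higher and 7.63% lower at all genes, and their median log2 fold change was 0.44, against 0.04. At an unadjusted p under 0.05 the pathway had 20 higher and 2 lower, and DESeq2 called 6 higher and 0 lower.

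In antigen presentation, Cd74 and Tap2 had opened windows, of 19 genes, where 1.38% of all genes had one. Tap2 encodes a subunit of the peptide transporter for MHC class I, and the window 2.57 kb from it had 43.5, 32.2 and 38.6 CPM with RANKL, against 14.1, 16.4 and 6.59 CPM in controls. Of the 15 other tested windows of that list, edgeR called 5 higher and 0 lower, with 7 and 0 at an unadjusted p under 0.05, and DESeq2 called 1 and 0. Of the 17669 other windows tested at all genes, edgeR called 8.36% higher and 7.63% lower, 2557 and 2271 had an unadjusted p under 0.05, and DESeq2 called 677 and 599. Among 16 osteoclast genes, Calcr and Itgav had opened windows (12.5%), against 1.38% of all genes. Of their 65 windows, 2 had opened (3.08%), against 0.585% at all genes. Calcr encodes the calcitonin receptor, and a window 21.2 kb from it had 62.1, 77.2 and 60.4 CPM with RANKL, against 16.3, 8.19 and 11 CPM in controls. Of the 24 other tested osteoclast windows, edgeR called 0 higher and 2 lower, with 1 and 2 at an unadjusted p under 0.05, and DESeq2 called 0 and 1; 2 of 24 (8.33%) is near the 7.63% called lower at all genes.

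Among 18 ONECUT, HNF and intestinal identity genes, Onecut1 and Nr5a2 had opened windows (11.1%), against 1.38% of all genes. Of their 111 windows, 2 had opened (1.80%), against 0.585% at all genes. Onecut1 is a paralogue of the factor ONECUT2 named in the title of the study, and the window 19.7 kb from it had 80.7, 49.3 and 70 CPM with RANKL, against 16.3, 12.3 and 13.2 CPM in controls. Nr5a2 encodes a nuclear receptor of the gut epithelium, and a window inside it had 40.4, 30 and 41.0 CPM with RANKL, against 1.09, 2.05 and 2.2 CPM in controls. The groups were apart in both, which the limits nearly fix. In this list 2 windows also met the limits with the groups exchanged, and of the 65 other tested windows edgeR called 2 higher (3.08%) and 8 lower (12.3%), against 8.36% and 7.63% at all genes, and DESeq2 called 2 and 3.

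Other lists held few opened windows or none. Apoa4, an apolipoprotein gene of enterocytes, had 1 at its start, with 15.5, 45.0 and 35 CPM with RANKL, against 2.17, 7.17 and 6.59 CPM in controls. Ankrd1, a target of YAP, had 1 at 13.3 kb, with 34.1, 40.7 and 38.6 CPM with RANKL, against 7.6, 5.12 and 0 CPM in controls. None was found at 26 AP-1 and Ets genes, 20 crypt and Wnt genes, 21 secretory genes, 7 immune genes or 14 mesenchymal and endothelial genes with a window. These lists had 13 to 107 windows each, of which 0.585% at all genes had opened, and nothing is read from their 0. In other tested windows of these lists, edgeR called 5 of 58 higher and 1 lower at AP-1 and Ets genes, 1 of 52 higher and 5 lower at crypt and Wnt genes, and 1 of 25 higher and 6 lower at secretory genes. At enterocyte genes 1 of 44 was called higher and 5 lower. At fetal-like and YAP target genes, the list of Ankrd1, 0 of 36 were called higher and 1 lower. Their median log2 fold change was -0.21, against 0.04 at all genes. At all genes 8.36% were called higher and 7.63% lower, and the AP-1 and Ets share called higher (8.62%) and the crypt and Wnt share called lower (9.62%) lie near these.

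**Figure D3:**
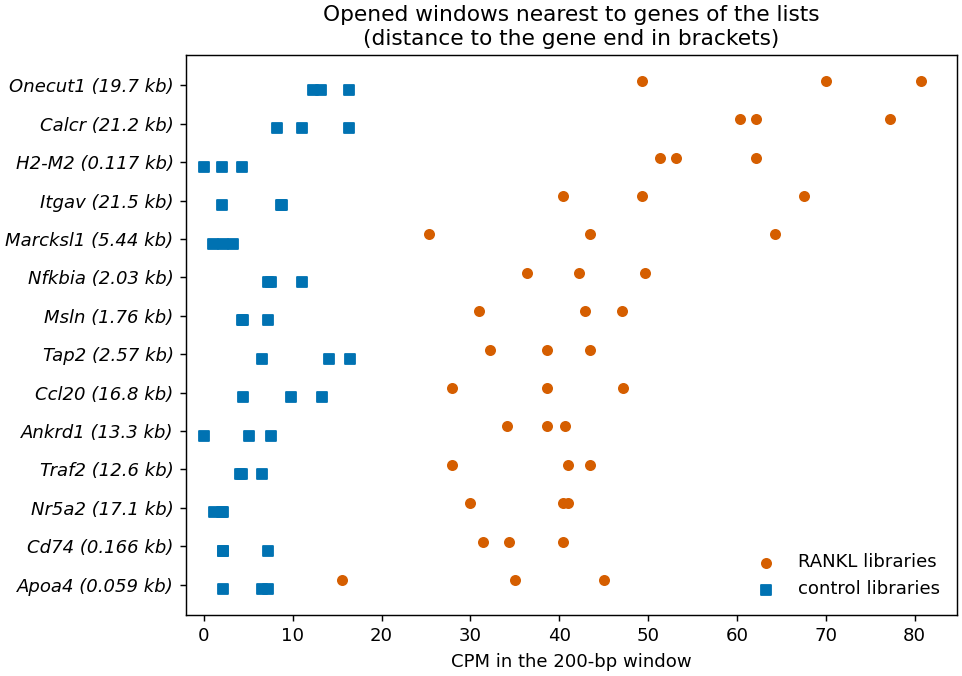
Opened windows nearest to a gene of the lists, with the distance to the gene end in brackets; each circle is a RANKL library and each square a control library (CPM in the 200-bp window). In all 14 windows the 3 RANKL libraries lie above the 3 control libraries, which the limits nearly fix. Highest by RANKL mean is Onecut1, at 49.3 to 80.7 CPM with RANKL and 12.3 to 16.3 CPM in controls. Lowest is Apoa4, at 15.5 to 45.0 CPM with RANKL and 2.17 to 7.17 CPM in controls.

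The opening reached beyond the central 200 bp. In the remaining 1800 bp of a 2-kb window, the opened windows had medians of 24.9, 24.2 and 24.4 CPM in RANKL replicates 1 to 3 and 7.54, 7.47 and 5.92 CPM in control replicates 1 to 3. Over all windows the flank medians were 12.5, 13.2 and 12.9 CPM with RANKL and 10.6, 10.2 and 10.4 CPM in controls. The median ratio of RANKL to control flank means was 3.47 (quartiles 2.30 and 5.11) for the opened windows, 1.15 for all windows, 0.915 for windows with a RANKL mean of at least 30 CPM and 0.492 for the windows with the groups exchanged. In 309 of the 362 (85.4%) the flanks of all RANKL libraries lay above those of all controls, against 17.1% of all windows. The flank comes from the same libraries and contrast as the limits, so it is given without a test.

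The flank followed the centre less closely at some windows. In 18 the flank ratio was under 1.5, and in 3 under 1, among them Trak1, which encodes a trafficking adaptor, at 24.6 CPM with RANKL and 25.3 CPM in controls. At 96 windows (26.5%) the ratio was over 5. Msln was among these, with flank means of 70.3 CPM with RANKL and 8.79 CPM in controls, a ratio of 7.99, and so was Nfkbia, with 73.2 CPM with RANKL and 13.7 CPM in controls, a ratio of 5.33. At Tap2 and Elovl6 the ratios were 1.36 and 1.31. In the flank of the window nearest Pou2af1, named for its control flank after its values were seen, the controls held 0, 1 and 0 reads, and the RANKL mean was 19.2 CPM.

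The central 200 bp drew a larger part of the reads of the 2-kb window with RANKL. In the opened windows it held 47.5%, 43.5% and 44.6% of the reads in RANKL replicates 1 to 3 and 29.5%, 30.3% and 29.5% in control replicates 1 to 3. Over all windows the order was the reverse, with 36.5%, 33.9% and 36.0% with RANKL and 41.0%, 39.9% and 40.2% in controls. The RANKL libraries thus had the lower central share at large and the higher one in the opened windows, whose central counts the limits used.

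**Figure D4:**
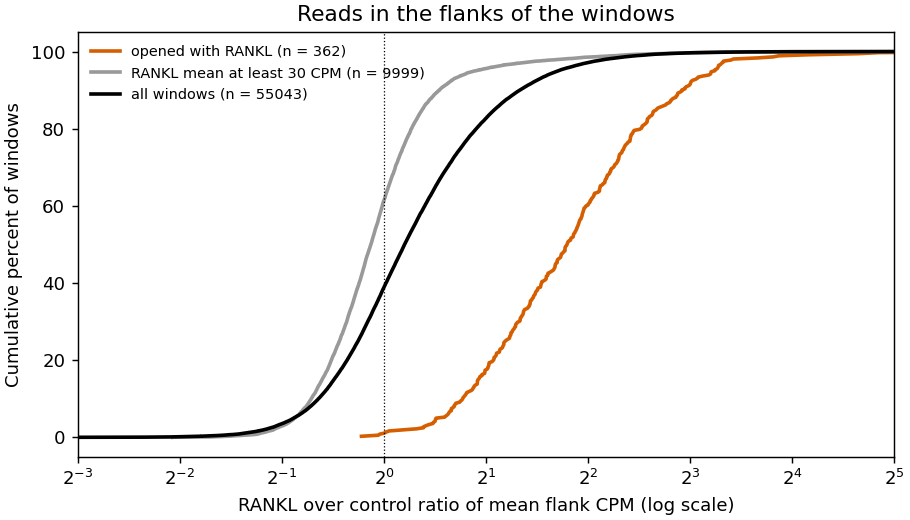
Cumulative share of windows (percent) by the ratio of mean flank CPM, RANKL over control (log scale), for the opened windows, windows with a RANKL mean of at least 30 CPM and all windows; the dotted line marks a ratio of 1. The medians are 3.47, 0.915 and 1.15, and the window nearest Pou2af1 lies beyond the right end of the axis.

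The windows around the opened ones were mostly not called. Within 50 kb of the 362 lay 1126 other windows, of which 510 were tested; 57 (11.2%) were called higher with RANKL and 29 (5.69%) lower, against 8.51% and 10.2% of all other windows tested. In windows over 1 kb from a gene end the shares were 12.2% higher and 7.50% lower near the opened windows, against 8.04% and 14.8% at large. Within 1 kb of a gene end they were 8.67% higher and 1.33% lower, against 9.12% and 2.93%. Nearest to the opened windows, within 10 kb, 15.3% of 72 were called higher and 5.56% lower. From 200 to 500 kb away the shares were 8.96% and 8.40%. Whether the shares near the opened windows differ from those at large was not tested.

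Most opened windows with a tested neighbour had none that was called. Of the 227 with a tested neighbour, 51 had at least 1 called higher, 6 had at least 2, and 29 had at least 1 called lower, of which 2 had both. The rest of the 362 had no tested neighbour, and 33 of these had no other window at all within 50 kb. Such counts were not made around other windows, so nothing is read from them. The share called lower was 2.75% without RANKL replicate 2, 2.84% without control replicate 1, 3.10% without RANKL replicate 1 and 3.51% without control replicate 3, against 6.46%, 8.20%, 7.24% and 7.34% of all other windows in the same fits. The share called higher was 7.27% without RANKL replicate 3 and 7.44% without control replicate 2, against 5.43% and 6.35% at large.

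**Figure D5:**
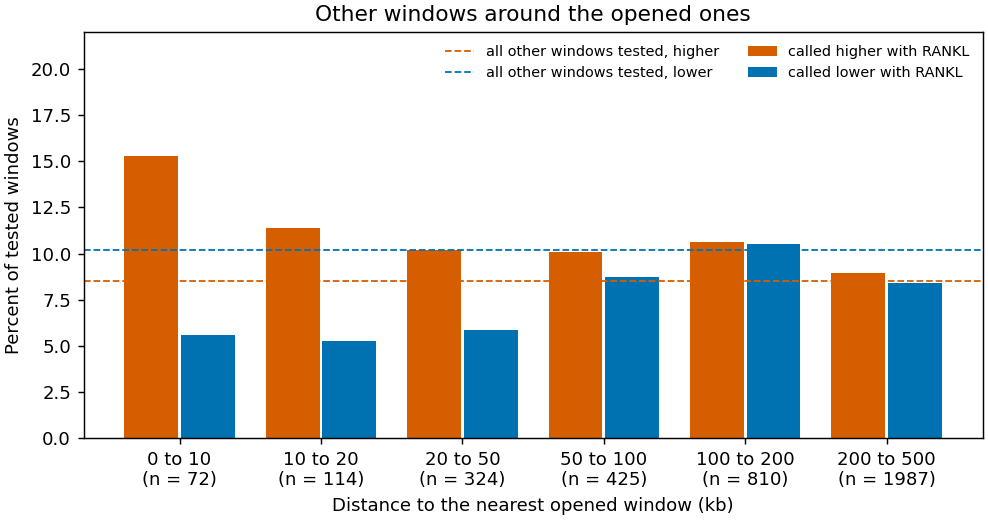
Share of tested windows (percent) called higher or lower with RANKL by edgeR, by distance to the nearest opened window (kb), leaving out the opened windows themselves; dashed lines give the shares over all other windows tested, 8.51% higher and 10.2% lower. Within 10 kb 15.3% were higher and 5.56% lower, and from 200 to 500 kb 8.96% and 8.40%.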

How the data were processed

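Organoids given RANKL and control organoids (n = 3 each, grouped by the labels) were profiled by ATAC-seq with 38 bp reads. Raw counts, as the authors deposited them, cover 55056 windows of 200 bp. A second deposited table holds a score for a 2-kb window at 55050 of the centres. From its values, the score is ln(count + 1), centred and scaled by library. Inverting it gave 2-kb counts within 0.0022 to 0.0074 of whole numbers, and the flank is the 2-kb count less the 200-bp count. The submitters' processing notes list MACS2 (2.2.7), DESeq2 (1.34.0), fastp (0.20.1), Picard and BWA (0.7.17) with no role for any, and the mouse builds GRCm38 and mm10. How windows were chosen, whether reads were shifted for the Tn5 cut and whether duplicates were removed is not given in the sources used here. Duplicate reads, if kept, would make counts less precise than they look.

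CPM divides a count by the total of the library's windows, and flank CPM by the total of its flanks. Library totals were 322173 to 976881 counts. The interval on the distal share takes windows as independent draws, and the floors cover counting error only. Window starts, counted from 0 in the files, are printed from 1. RefSeq tables of GRCm38.p6 gave gene ends and promoter sequences, without telling exons from introns. They listed no promoter start for opened windows on the chromosome of Cd74. The windows test ran in edgeR 4.0.16 under R 4.3.3 (TMM, filterByExpr, robust quasi-likelihood, no covariates, Benjamini-Hochberg over 21618 windows, threshold 0.05); SE is the absolute log2 fold change over the root of F. Tested on simulated data for this comparison (21618 windows), it found 100 of 100 windows altered 4-fold, 62 of 100 altered 2-fold, and 13 of 19898 unaltered ones. Alternatives were DESeq2 1.42.0, other size factors, no filter, an experiment block, other limits and distances, and leaving out each library.

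The windows and the 12 gene lists were chosen with earlier results of these data known. The naming rule took the 10 windows highest with RANKL, the 5 largest ratios, up to 10 within 1 kb of a gene end, up to 4 per list, groups of 3, and those next to a limit. Itga6, Itgb6, Hrh1, Pde1c, Ptpre, Nfe2l1, Pou2af1, the genes with 2 opened windows and the miRNA genes were named after their values were seen. Genes were assigned by the nearest gene end within 50 kb; farther genes are named as places only.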

Additional observations from a re-analysis of the deposited data

How the results depend on the processing

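Raising the RANKL limit to 40 CPM left 136 of the 362 windows; the other changes of limit or scaling gave 263 to 394. Leaving out a library gave 375 to 436 windows, 294 to 345 of them shared with the 362, and distal shares of 93.1% to 95.2%. At 5 kb from a gene end the distal share was 87.3%, against 71.0% of all windows. Scaled by 200-bp totals, the median flank ratio was 4.29, against 1.42 for all windows, and it was 3.21 to 3.61 with a library left out.

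DESeq2 called 1264 windows higher and 1039 lower; without RANKL replicate 3, edgeR called 1347 higher. Over all libraries left out in turn the ranges were 1347 to 2726 higher and 1467 to 2289 lower. Without the filter on low counts the split was 3204 higher and 1973 lower, against 2167 and 2169. By DESeq2, 6.08% of neighbours were higher and 1.37% lower, against 4.28% and 4.89% at large, and leaving out a library gave 7.27% to 12.9% higher and 2.75% to 5.03% lower. The cause of these shifts was not tested.

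Experiments carry the same numbers in both groups, but same-numbered libraries did not deviate together (correlations of -0.035, 0.015 and -0.013). With the experiment as a replicate block, 1811 windows were called higher and 1824 lower, neighbours were 9.02% higher and 4.12% lower, and 275 of the 362 were at least 3 times the control library of the same number in each experiment, 98.5% of them distal. Low counts limit these results: the 15 CPM limit on each RANKL library is 4.83 counts in the shallowest.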
